A study of Mus musculus with 11 samples.

Results

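The red cell genes of the mouse embryonic forebrain at E12.5 were examined as 9 genes chosen by symbol, namely the embryonic globins Hbb-bh1, Hbb-y and Hba-x, the adult alpha globins Hba-a1 and Hba-a2, and the erythroid genes Alas2, Slc4a1, Gata1 and Klf1. All 9 were among the 20475 genes of each deposited table, and all 9 passed the filter on low values (a mean of at least 10 normalized counts) in both. Poly(A) RNA was sequenced in 2 comparisons of embryos with and without Kif20a, a kinesin that acts in cell division. The germline comparison held 3 wild-type libraries and 3 libraries from Kif20a knockout-first embryos, in which a LacZ-neo cassette interrupts the gene; that line descends from 1 embryonic stem cell clone and was crossed to C57BL/6J. The inducible comparison held 2 libraries from Kif20a fl/fl controls and 3 from Nestin-CreERT2; Kif20a fl/fl embryos, and both groups were exposed to tamoxifen on earlier days of gestation. Nestin drives CreERT2 in neural progenitors, so the red cells themselves are not the cells in which this Cre is meant to act. The labels name the tissue forebrain and the paper names it cortex, and whether blood was rinsed away is not given in the sources used here.

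Values are read counts per gene, normalized by the authors within each table, so that levels are comparable between the libraries of a table and not between tables. Total normalized counts ran from 13048716 to 15551274 in the germline and from 24118520 to 24497307 in the inducible libraries. Wild-type and mutant embryos were littermates according to the paper, but how many animals or litters stand behind each library is not given in the sources used here, so that p-values measure only the spread between these samples. Kif20a itself lay between 2295 and 2680 normalized counts in germline wild-type libraries and between 374 and 503 in knockout libraries, and at 4760 and 4844 in the inducible controls against 2853 to 3125 in the knockout. In each comparison the groups of Kif20a values did not overlap. Germline knockout replicate 2 stood apart from the other 5 germline libraries on the first principal component, which carried 58% of the variance, and the germline fold changes of the members and the counts and medians of the gene lists are therefore also given without it.

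Blood reaches the forebrain through its vessels, and at this stage most circulating red cells are primitive erythroblasts, which arise in the yolk sac and mature in the bloodstream. They make embryonic hemoglobins from the zeta-like chain of Hba-x and from the beta-like chains of Hbb-bh1 and, later, Hbb-y. In a step called maturational switching, Hba-x gives way to Hba-a1 and Hba-a2, and Hbb-bh1 gives way to Hbb-y, whereas the adult beta genes Hbb-b1 and Hbb-b2 come to dominate with the definitive red cells made in the fetal liver. Alas2 encodes the first enzyme of heme synthesis in red cells, Slc4a1 the anion exchanger band 3 of the red cell membrane, and Gata1 and Klf1 transcription factors that drive the erythroid program through GATA and CACCC motifs. In brain tissue the level of such transcripts is commonly read as a measure of blood.

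The globin members lie in 2 clusters. On NCBIM37 (mm9) the alpha cluster runs on the plus strand from Hba-x (chr11:32176400-32178116) to Hba-a1 (chr11:32183511-32184465) and Hba-a2 (chr11:32196489-32197301). The beta cluster runs on the minus strand from Hbb-y (chr7:111000259-111001754) through Hbb-bh1 (chr7:110990150-110991678) to Hbb-b1 (chr7:110975048-110976610) and Hbb-b2 (chr7:110961038-110962510), with the embryonic genes first in the direction of transcription. The first 30 coding bases of each globin are shown because they let a reader see which genes a read can tell apart; capitals mark the bases that differ from Hbb-b1 in the beta-type genes and from Hba-a1 in the alpha-type genes.
Hbb-y, chr7:111001637-111001666, minus strand: atggtgAacTtTactgCtgAGgaAaagAcC
Hbb-bh1, chr7:110991595-110991624, minus strand: atggtTcacTtCacAgCtgAGgagaaggcA
Hbb-b1, chr7:110976360-110976389, minus strand: atggtgcacctgactgatgctgagaaggct
Hba-x, chr11:32176664-32176693, plus strand: atgTCTctGATGAAgAaTgaGaGaGCTaTc
Hba-a1, chr11:32183707-32183736, plus strand: atggtgctctctggggaagacaaaagcaac

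Over the whole coding sequence, Hba-x was 62.0% identical to Hba-a1, Hbb-bh1 was 76.4% identical to Hbb-y, and Hbb-y was 74.3% identical to Hbb-b1. The longest identical runs in these pairs were 18, 26 and 22 bases, so that the embryonic genes are separable. In contrast, Hba-a1 and Hba-a2 differed at 1 of 429 coding bases, with an identical run of 380 bases. Their deposited values were nearly equal in every library (57786 and 57790 normalized counts in germline wild-type replicate 1, for example). The pair is thus in effect 1 measurement with uncertain division between the copies. Both copies are nevertheless kept in the counts and medians over the 9 members and in the main alpha-type share. The pair is counted once only where this is stated. Hbb-b1 and Hbb-b2 also differed at 1 of 444 coding bases, with an identical run of 416 bases, but carried distinct values. Both are summed wherever beta-type globin is given, and counting this pair once was not tried. The symbols Hbb-bs and Hbb-bt repeated the values of Hbb-b1 and Hbb-b2 and were not counted again.

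The promoters were read because Klf1 and Gata1 are themselves members. RefSeq windows (GRCm38.p6) of 300 bases around the start site were matched for 7 of the 9 members, with no entry for Hbb-bh1 and Slc4a1. CACCC, on either strand, was found in 7 of these 7 and GATAA, on either strand, in 6 of them, so that 6 held both. Among 32851 promoters in the same table, 57.5% held CACCC, 25.4% held GATAA and 12.6% held both. The letters searched do not overlap each other. The examples below show the motifs in capitals, with the position of the first capital relative to the start site; each match is a description of sequence and not of binding.
Hba-x, GATAA at -107 with CACCC after it, chr11:32276481-32276510, plus strand: gttgctggctctGATAAcaggctcCACCCt
Hba-a1, CACCC at -60, chr11:32283600-32283629, plus strand: caagggcgtgtcCACCCtgcctggaggaca
Hbb-y, CACCC at -111, chr7:103853301-103853330, minus strand: atgacctggctcCACCCatgaggaccacgg
Alas2, GATAA on the opposite strand (TTATC) at -86, chrX:150547319-150547348, plus strand: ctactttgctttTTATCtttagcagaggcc

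Globin transcripts were a visible part of every library. With the adult alpha pair counted once, globins made up 0.845%, 0.510% and 0.674% of all normalized counts in germline wild-type libraries and 0.866%, 0.164% and 0.918% in germline knockout libraries. The corresponding values were 0.482% and 0.536% in the inducible controls and 0.406%, 0.573% and 0.493% in the inducible knockout. Germline knockout replicate 2 was the only library under 0.4%. In bulk tissue, fewer red cells and less globin RNA per red cell cannot be told apart. Alpha-type and beta-type counts stayed in a narrow ratio within each table, 1.14 to 1.18 in the germline and 1.19 to 1.31 in the inducible libraries, even though the amount of globin itself differed more widely.

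Per kilobase of exon, the adult alpha pair and Hbb-y were the most abundant members. In the inducible controls Hba-a1 stood at 62950 ± 1250 and Hbb-y at 57130 ± 7630 normalized counts per kilobase (mean ± SD, n = 2), a gap within the spread of Hbb-y. Hba-x followed at 18710 ± 2600 and Hbb-bh1 at 11210 ± 2940, which differed by more than either SD. The non-globin members were far lower, with Slc4a1 at 353 ± 32.8, Alas2 at 264 ± 16.1, Klf1 at 35.2 ± 8.01 and Gata1 at 13.7 ± 5.16, and each step of this order exceeded the SDs. Hba-a2 has a shorter exon model than Hba-a1 (670 against 812 bases) and so stood higher per kilobase, at 76290 ± 1510, on nearly equal counts.

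In the germline wild-type libraries the order per kilobase was looser. Hba-a1 (52260 ± 16400 normalized counts per kilobase, n = 3) and Hbb-y (43720 ± 6700) overlapped, as did Hba-x (7884 ± 5960) and Hbb-bh1 (4271 ± 4540). Alas2, at 145 ± 33.6, stood above Slc4a1 at 85.0 ± 44.9, the opposite of their order in the inducible controls. Klf1 (12.2 ± 5.13) and Gata1 (4.60 ± 4.07) again came last. The globin members were thus ranked alike in both sets of controls, whereas the erythroid enzyme and the membrane protein were not.

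**Figure D1:**
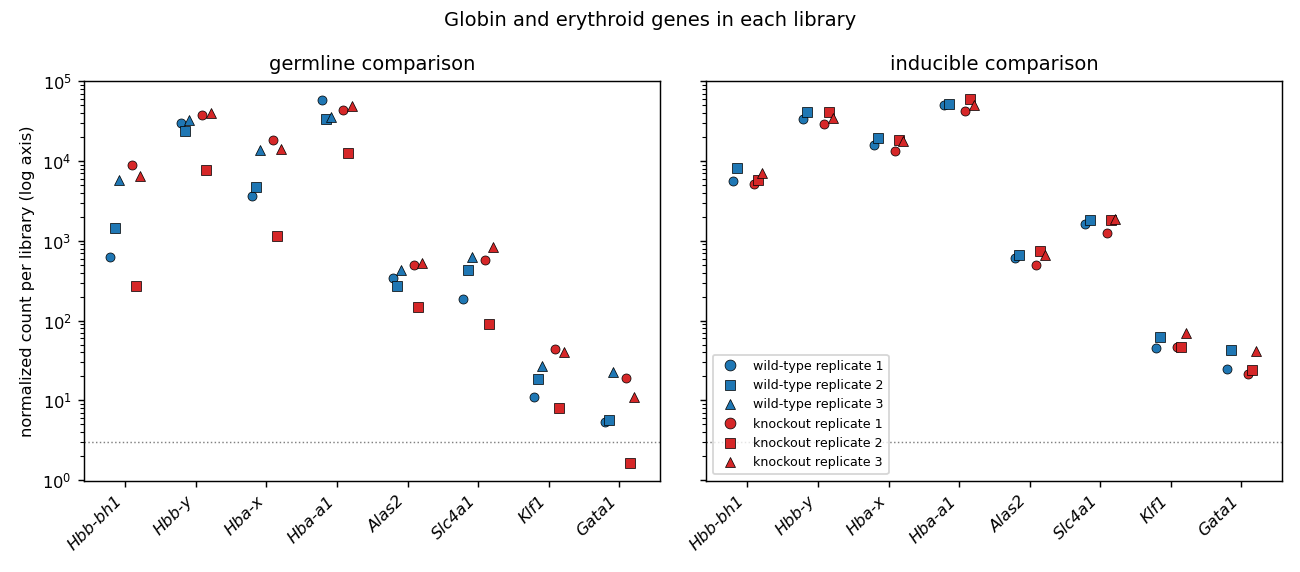
Normalized count of each member in each library on a log axis, with the germline comparison on the left and the inducible comparison on the right; Hba-a2 is left out because its values are nearly equal to those of Hba-a1, and the dotted line marks 3 counts, under which levels have no order. Germline knockout replicate 2 (red squares, left) is the lowest library for each gene, and the inducible libraries sit close together; the panels were normalized separately.

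Knockout was first compared with wild-type in the germline libraries, to see whether blood content differed with genotype. No member passed the test. At the thresholds of the paper (1.5-fold and an unadjusted P of at most 0.05), 0 of the 9 members were called, against 2.74% of the 13938 genes tested, and 0 of the 9 reached an unadjusted limma P of 0.05, against 5.39%. The groups overlapped for 9 of 9 members, against a background of 13.5% of all genes whose groups did not overlap. The median log2 fold change of the members was -0.08, with 3 above 0 and 6 below, and the median of all genes tested was -0.04.

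Among the embryonic beta-type globins, the range over the 6 libraries was 32.8 times for Hbb-bh1, the widest of the members, and 5.19 times for Hbb-y. Hbb-bh1, the earlier chain, stood at 622, 1439 and 5806 normalized counts in wild-type libraries and at 8894, 271 and 6523 in knockout libraries. Both the 2 highest libraries and the lowest were knockouts. Its log2 fold change was 0.53 with a 95% interval from -2.78 to 3.85 (limma, adjusted p = 0.932), which leaves room for a large change in either direction. Hbb-y, the later chain, was steadier, at 30411, 23914 and 32372 in wild-type libraries and 38379, 7706 and 39990 in the knockout. Apart from the 7706 of replicate 2, the knockout values lay above all wild-type values. The log2 fold change was -0.33 (95% interval -1.77 to 1.11, adjusted p = 0.895).

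Hba-x, the embryonic alpha-type gene, gave 3670, 4697 and 13817 normalized counts in wild-type libraries and 18414, 1149 and 14335 in knockout libraries. The 6 libraries stood in the same order as for Hbb-bh1, and the log2 fold change was 0.12 (95% interval -2.39 to 2.62, adjusted p = 0.984). Hba-a1 gave 57786, 33600 and 35908 in wild-type libraries and 43348, 12518 and 49688 in the knockout. Its highest library was wild-type replicate 1, in which Hbb-bh1 and Hba-x were the lowest among the wild-type. The log2 fold change of Hba-a1, and of Hba-a2, was -0.46 (95% interval -1.70 to 0.787, adjusted p = 0.851).

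Next came the genes of heme synthesis and of the red cell membrane. Alas2 stood at 342, 270 and 432 normalized counts in wild-type libraries and 492, 146 and 524 in knockout libraries, a log2 fold change of -0.03 (95% interval -1.18 to 1.13, adjusted p = 0.993). Slc4a1 ranged more widely, at 188, 434 and 626 against 571, 91.1 and 825, with a log2 fold change of -0.08 (95% interval -2.07 to 1.9, adjusted p = 0.985). Wild-type replicate 1 was low for Slc4a1 and not for Alas2.

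The transcription factors were near the lower end of detection. Klf1 gave 11.0, 18.4 and 26.7 normalized counts in wild-type libraries and 43.7, 7.95 and 40.2 in knockout libraries, a log2 fold change of 0.45 (95% interval -1.22 to 2.12, adjusted p = 0.881). Gata1 gave 5.39, 5.58 and 22.7 against 18.8, 1.65 and 11.1, with a log2 fold change of -0.22 (95% interval -2.40 to 1.96, adjusted p = 0.960). The Gata1 value of knockout replicate 2 lies under 3 counts, the level below which values were given no order. As Gata1 and Alas2 are X-linked, the Y-linked gene Kdm5d was read in the same libraries, at 485, 1.63 and 1442 normalized counts in wild-type libraries and 0.52, 0 and 398 in the knockout; the part of embryo sex in these members was not tested.

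Germline knockout replicate 2 decided the direction of most of these values. It was the lowest of the 6 libraries for 9 of 9 members, while 30.5% of all genes tested were lowest there. Without it the groups were tested again with 3 wild-type and 2 knockout libraries, and 3 members were called higher in the knockout, namely Hbb-bh1 (log2 fold change 2.14, 95% interval 0.433 to 3.84, adjusted p = 0.260 in limma), Hba-x (1.39, 0.299 to 2.48, adjusted p = 0.256) and Klf1 (1.20, 0.225 to 2.18, adjusted p = 0.266). In that fit 4.19% of 14008 genes were called higher and 8.77% in either direction, and the adjusted p of no member was under 0.05. The other members were at 0.45 (Hbb-y), 0.57 (Alas2), 0.88 (Slc4a1), 0.63 (Gata1) and 0.17 (Hba-a1 and Hba-a2), and the median over the 9 members was 0.63 against -0.04 for all genes. The thresholds were therefore passed or missed according to 1 library.

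**Figure D2:**
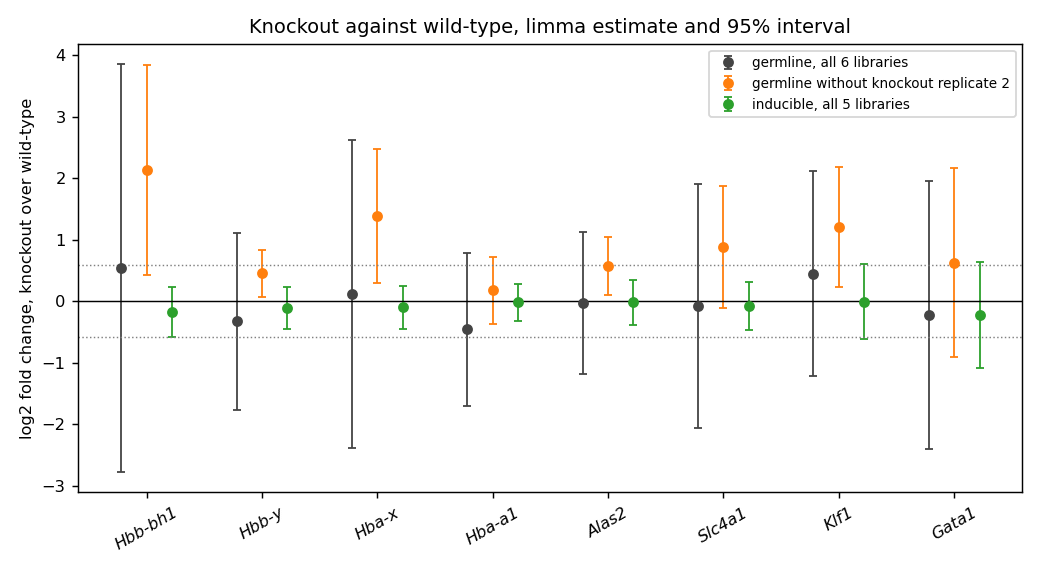
Log2 fold change of each member, knockout over wild-type, as estimated by limma with its 95% interval, for the germline comparison with all 6 libraries (grey) and without knockout replicate 2 (orange) and for the inducible comparison (green); dotted lines mark a fold of 1.5. The grey intervals all cross 0, the orange ones lie above 0 for Hbb-bh1, Hbb-y, Hba-x, Alas2 and Klf1, and the green ones are the narrowest and all cross 0.

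Other genes of that library differed as well. The 18 listed macrophage and microglia genes, which mark immune cells of the brain and its borders, summed to 69.8 normalized counts there and to 1059 to 1754 in the other germline libraries, with Mrc1 and the platelet gene Pf4 at 0. Of 20 endothelial genes, 17 were lowest there, and their sum without Slc2a1 was 1308 against 2460 to 4612 elsewhere. The 17 listed forebrain neural genes went the other way in sum, at 124600 there against 62224 to 86877 in the other germline libraries. Of these genes, 2 were lowest there. Genes of the hypoxia list summed to 114120 in knockout replicate 2 and 77172 in knockout replicate 1, against 25097 to 28955 in the other 4, and these 2 knockout libraries held the lowest and the second highest globin share. The part of these differences in the member values was not tested.

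The inducible comparison, which asks the same question after a later and neural deletion, showed less spread. None of the 9 members was called there, against 1.29% of the 14081 genes tested, and 0 of the 9 reached an unadjusted P of 0.05, against 6.01%. The groups overlapped for 9 of 9 members, against 22.6% of all genes with no overlap. Every member had a log2 fold change below 0, with a median of -0.08 against 0.00 (-0.0019) for all genes tested. The highest library exceeded the lowest by 1.39 to 1.99 times over the members, where the germline ratios ran from 3.58 to 32.8. In each germline ratio the lowest library was knockout replicate 2. Among germline wild-type libraries alone the ratios ran from 1.35 (Hbb-y) to 9.34 (Hbb-bh1), and between the inducible controls from 1.03 to 1.72. Direction in the inducible comparison too rested on single libraries. Knockout replicate 1 was lowest for 8 of 9 members, while 21% of all genes tested were lowest there. Without it Hba-x, Hbb-y, Hba-a1, Hba-a2, Alas2, Slc4a1 and Klf1 had log2 fold changes above 0, the largest being 0.14. Without control replicate 2, which leaves 1 control, 9 of 9 members were above 0 (median 0.04). Without control replicate 1, 0 of 9 were (median -0.24).

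Hbb-bh1 stood at 5606 and 8157 normalized counts in the inducible controls and 5199, 5755 and 7077 in knockout libraries, a log2 fold change of -0.18 (95% interval -0.591 to 0.227, adjusted p = 0.900 in limma). Hbb-y gave 34197 and 41325 against 29199, 41305 and 34956 (log2 fold change -0.11, 95% interval -0.454 to 0.232, adjusted p = 0.925). For both, the control range contained 2 of the 3 knockout values. Hba-x gave 15824 and 19273 against 13289, 18188 and 17941, with a log2 fold change of -0.10 (95% interval -0.446 to 0.248, adjusted p = 0.933). Hba-a1 gave 50396 and 51827 against 42940, 59780 and 50205, with a log2 fold change of -0.02 (95% interval -0.317 to 0.283, adjusted p = 0.990). These intervals exclude a 1.5-fold change (0.58 on the log2 scale) for Hbb-y, Hba-x, Hba-a1 and Hba-a2 in both directions, and for Hbb-bh1 only upward.

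Alas2 stood at 606 and 661 normalized counts in the controls and 502, 741 and 655 in the knockout, a log2 fold change of -0.02 (95% interval -0.382 to 0.346, adjusted p = 0.991). Slc4a1 gave 1611 and 1838 against 1257, 1844 and 1865, a log2 fold change of -0.08 (95% interval -0.475 to 0.318, adjusted p = 0.961). Knockout replicate 1 was the lowest library for both the heme enzyme and the membrane protein. Klf1 gave 45.3 and 62.7 against 46.6, 45.9 and 69.7 (log2 fold change -0.01, 95% interval -0.619 to 0.606, adjusted p = 0.997), and Gata1 gave 24.6 and 42.4 against 21.3, 23.9 and 41.1 (log2 fold change -0.22, 95% interval -1.09 to 0.643, adjusted p = 0.942). The factors split in the same way, with control replicate 2 and knockout replicate 3 high and the other 3 low. Kdm5d was listed at 0 in both controls and at 1259 to 1386 in the 3 knockout libraries. Embryo sex and genotype therefore cannot be told apart in this comparison, for the X-linked Gata1 and Alas2 or for any other member. This also holds for the globin intervals given above.

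Globin switching was read as shares within a library, which do not scale with its total globin. The first share was Hbb-bh1 among the embryonic beta-type globins, per exon base. It was 2.15%, 6.08% and 16.2% in germline wild-type libraries and 20%, 3.65% and 14.9% in germline knockout libraries, that is 8.14% ± 7.24 against 12.9% ± 8.35 (SD, n = 3 and n = 3; exact permutation test, two-sided, p = 0.500). The germline libraries thus spanned a wide range, with 3 of them under 7% and 3 of them over 14%, and both kinds occurred in both genotypes. In the inducible comparison it was 15% and 17.5% in the controls and 16.1%, 13% and 17.9% in the knockout (16.3% ± 1.78, n = 2, against 15.7% ± 2.45, n = 3; exact permutation p = 1.00).

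The share of Hbb-y plus Hbb-bh1 in all beta-type globin ranked the germline libraries in the same order, but not the inducible ones. It was 61.5%, 80.6% and 88.8% in germline wild-type libraries and 89.6%, 71.0% and 85.5% in the knockout, 77% ± 14.0 against 82.0% ± 9.76 (SD, n = 3 and n = 3; exact permutation p = 0.6). The share was lowest in wild-type replicate 1, where Hbb-b1 and Hbb-b2 stood at 11793 and 11107 normalized counts, and these adult genes lay between 1911 and 5100 in the other 5 germline libraries. In the inducible libraries the share was 80.3% and 85.0% in controls and 82.1%, 80.8% and 83.4% in the knockout (exact permutation p = 1.00). Embryonic chains were therefore the larger part of beta-type globin in 11 of 11 libraries.

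For the alpha-type genes, Hba-x made up 2.43%, 5.19% and 13.1% in germline wild-type libraries and 14.3%, 3.47% and 10.1% in the knockout, 6.90% ± 5.53 against 9.29% ± 5.44 (SD, n = 3 and n = 3; exact permutation p = 0.700). The adult pair is in the denominator with both its copies here. With the pair counted once, the shares were 5.21%, 10.8% and 25.0% against 26.9%, 7.36% and 20%, so that the level of the share, though not its order over libraries, depends on this choice, which was made after seeing the data. In the inducible libraries the share was 10.9% and 12.7% in controls and 10.8%, 10.6% and 12.3% in the knockout (exact permutation p = 0.400). Over the 6 tests of shares every adjusted p was 1.00. The smallest p that the germline design allows is 0.1, and the inducible design, with fewer libraries, allows none that low.

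**Figure D3:**
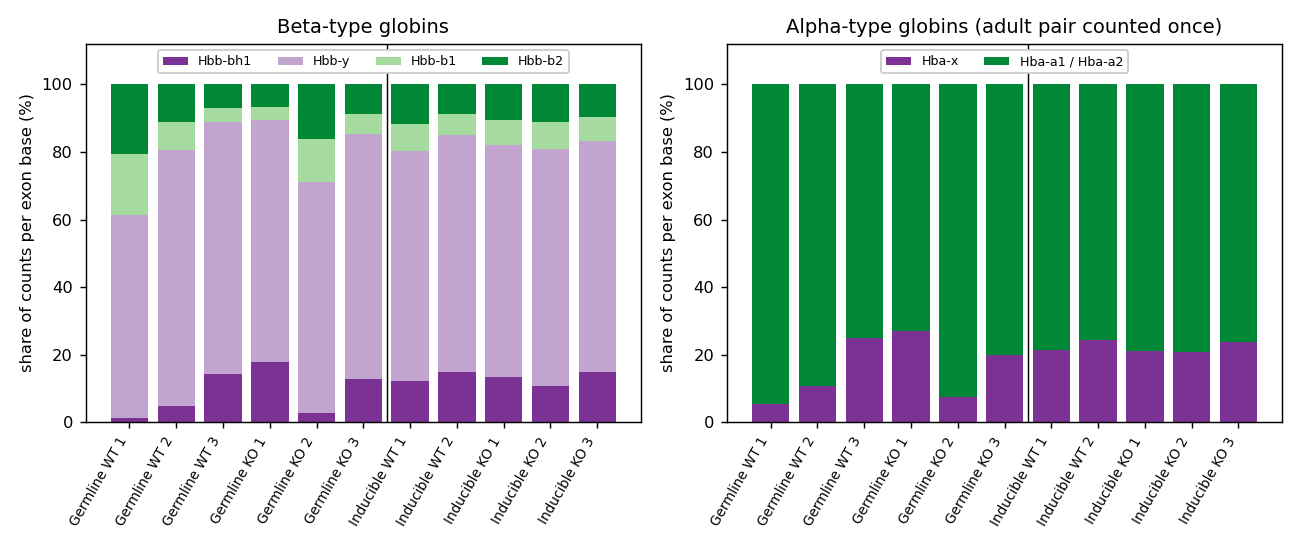
Composition of beta-type (left) and alpha-type globin (right) in each library, as shares in percent of normalized counts per exon base, with the adult alpha pair counted once; WT is wild-type or control and KO is knockout, and the vertical line divides the tables. Germline WT 1, WT 2 and KO 2 have the smallest shares of Hbb-bh1 and Hba-x, and the 5 inducible libraries are alike.

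Other red cell genes were then read relative to the globin of the same library. Of 11 erythroid genes, 6 were lower in each of the 3 germline libraries with the low Hbb-bh1 share than in each of the other 3. The 6 include Gata1, whose low set holds a value under 3 counts and so has no firm order. The other 5 (Alas2, Klf1, Slc4a1, Nfe2 and Tal1) did not divide in this way. The same count was not made over all genes, and the sets come from these same libraries. It therefore describes these 11 genes only. Hemgn, a nuclear protein of red cell precursors, stood at 0.305, 1.86 and 16.3 counts per 10000 globin counts in wild-type replicates 1, 2 and 3 and at 17.6, 1.32 and 9.81 in the knockout. Rhag, of the Rh membrane complex, stood at 0.372, 2.02 and 6.61 against 6.35, 1.68 and 5.53. Few normalized counts stand behind the ratios of wild-type replicate 1 and knockout replicate 2. These were 3.52 and 3.36 for Hemgn and 4.29 and 4.28 for Rhag, just above 3. For both of these genes the libraries fell into the same low and high sets of 3 as for Hbb-bh1, with no overlap. In contrast, Tal1, a factor of early blood cells, stood at 10.8 in wild-type replicate 2 and 10.2 in knockout replicate 3. Hemgn and Rhag were singled out after their values were seen, and no test was made.

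Among the members, Gata1 per 10000 globin counts stood at 0.467, 0.788 and 2.42 in wild-type libraries and 1.62, 0.648 and 0.922 in the knockout; its count in knockout replicate 2 lies under 3, so that library was given no place in the order. Alas2 did not divide the libraries in this way, at 29.6, 38.2 and 46.2 against 42.6, 57.5 and 43.8, and its highest value was in knockout replicate 2. Slc4a1, at 16.3, 61.3 and 66.9 against 49.4, 35.8 and 68.8, and Klf1, at 0.953, 2.60 and 2.86 against 3.78, 3.12 and 3.35, set wild-type replicate 1 apart from the rest. In the inducible libraries these ratios were close, Alas2 between 50.5 and 54.5, Slc4a1 between 126 and 155, Klf1 between 3.32 and 5.80 and Gata1 between 1.73 and 3.42.

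**Figure D4:**
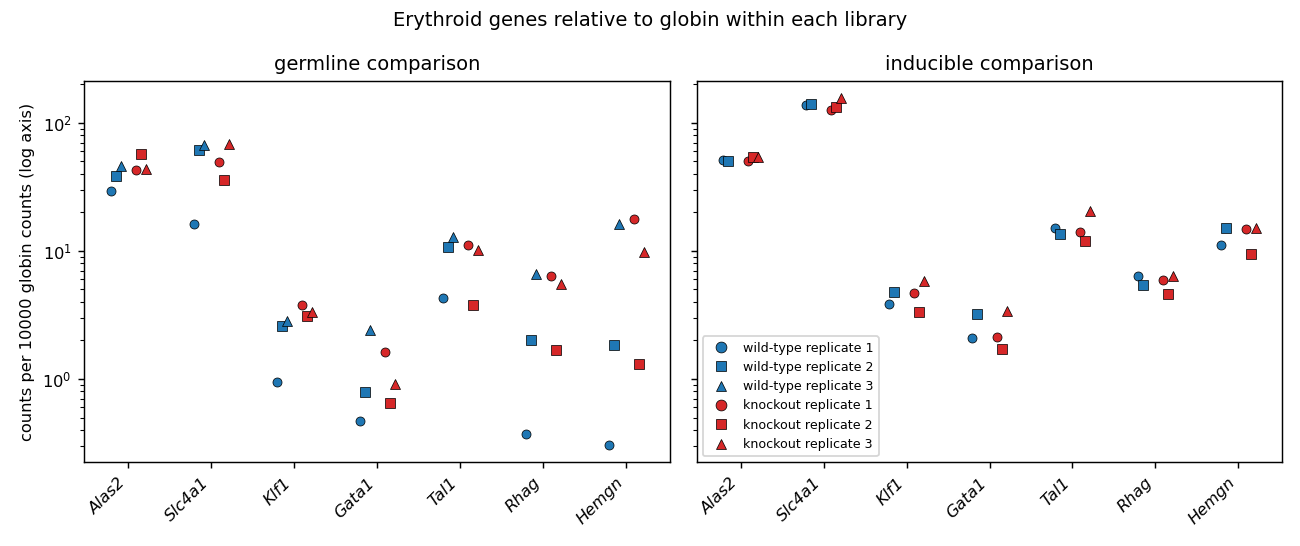
Erythroid genes per 10000 globin counts of the same library on a log axis, by library, germline on the left and inducible on the right. Germline wild-type replicates 1 and 2 and knockout replicate 2 lie below the other germline libraries for Rhag and Hemgn, whereas Alas2 stays within 29.6 to 57.5.

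A neuronal gene moved with the same split. Neurod6, a marker of young cortical neurons, stood at 6005, 2756 and 679 normalized counts in germline wild-type libraries and 218, 5949 and 650 in knockout libraries, so that the 3 libraries low in Hbb-bh1 share had the 3 highest values. Tbr1, another gene of cortical neurons, did not split in this way, with 2951 in wild-type replicate 3 above 2400 in wild-type replicate 1. In the inducible libraries Neurod6 lay between 1000 and 1774. Neurod6 was chosen after its values were seen, and its part in the globin shares was not tested.

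The rest of the red cell genes were followed in lists. Of the other globins, the theta-like Hbq1b was low, at 4.61 to 19.9 normalized counts in the germline and 9.65 to 19.5 in the inducible libraries, and Hbq1a and the embryonic Hbb-bh2 did not pass the filter. Hbb-b1 and Hbb-b2 had log2 fold changes of -0.71 and -0.63 in the germline and -0.03 and -0.07 in the inducible comparison, and neither was called. Without wild-type replicate 1 the germline values were -0.03 and -0.07, and without knockout replicate 2 they were -0.44 and -0.24. Of 19 genes of heme synthesis and iron uptake tested in the germline comparison, 0 were called lower and 2 higher, against 2.07% of all genes called higher. These were Cpox, a later enzyme of the heme pathway, at 155, 159 and 249 normalized counts against 347, 266 and 252 (log2 fold change 0.64 ± 0.247 SE), and Tfrc, the transferrin receptor used by most dividing cells, at 2323, 2077 and 2857 against 3460, 4955 and 2727 (0.59 ± 0.236). Both had an adjusted p of 0.779 in limma. Cpox lost its call without wild-type replicate 1, wild-type replicate 2 or knockout replicate 1 (0.52, 0.54 and 0.50), and Tfrc lost it without any of these or without knockout replicate 2 (0.56, 0.48, 0.62 and 0.36). The median of this list was -0.16, and without knockout replicate 2 it was -0.03. Cpox and Slc25a37, a mitochondrial iron carrier, were then called higher, 2 of 20 tested against 4.19% of all genes.

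Of 15 erythroid transcription factors and 17 genes of the red cell membrane and skeleton tested in the germline comparison, 0 were called. Of all genes 2.74% were called, and the medians of these lists were -0.10 and 0.04. Bcl11a, which represses embryonic globins in definitive cells and is also a neuronal gene, had the highest level among the factors, and Epb4.1, of the membrane skeleton, the highest among the membrane genes. Of 22 other erythroid genes, 1 was called higher, against 2.07% of all genes. This was Tspan33, a tetraspanin, at 46.3, 65.6 and 76.8 against 96.8, 101 and 119 normalized counts (log2 fold change 0.76, adjusted p = 0.779 in limma). Tspan33 lost its call without wild-type replicate 1, wild-type replicate 2 or knockout replicate 3 (0.56, 0.80 and 0.67). Without knockout replicate 2, the factors had 2 of 15 called lower (Bcl11a and Cbfa2t3), the membrane genes 3 of 17 higher and the other erythroid genes 5 of 22 higher (Hemgn, Blvrb, Tspan33, Cd59a and Fam132b), where 4.58% of all genes were called lower and 4.19% higher. The medians were then 0.10, 0.48 and 0.56. In the inducible comparison 0 of 20 heme and iron genes, 0 of 16 factors, 0 of 19 membrane genes and 0 of 22 other erythroid genes were called. Of all genes 1.29% were called. At an unadjusted P of at most 0.05 the counts were 0, 2, 1 and 2, where 6.01% of all genes passed.

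Genes outside the members with a like profile were named by their correlation with the mean log2 level of the members, as the lower of the values over the 6 germline and the 5 inducible libraries. Among 13741 genes the 10 highest were Cd59a, Nfe2, Pnp2, Epb4.2, Gp1ba, Pdzk1ip1, Tinagl1, Antxr2, Blvrb and Prkcdbp, with lower correlations from 0.957 down to 0.916. Nfe2 encodes an erythroid and megakaryocytic transcription factor, Epb4.2 a protein of the red cell membrane and Blvrb a biliverdin reductase. Cd59a stood at 45.6, 60.7 and 89.6 normalized counts in germline wild-type libraries and 127, 31.5 and 92.4 in the knockout. The members and these genes were read in the same libraries and share, in the germline, the low values of knockout replicate 2, so that the correlations are a description.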

How the data were processed

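RNA was extracted with TRIzol, poly(A) selected and made into TruSeq libraries. Alignment by the authors was to mm9 with TopHat (version 1.2.0 in the submitters' processing notes), after which they counted reads on RefSeq exons and normalized the counts in edgeR by the trimmed mean of M-values. The deposited signal is this normalized count, not scaled by gene length, not on a log scale and not whole, so a count model was not used. Each table was normalized alone. Raw depth is unknown, and no interval from counts is given.

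Genes with a mean of at least 10 were tested as log2(normalized count + 1) with limma 3.58.1 in R 4.3.3 (lmFit, eBayes with trend, two-sided), knockout against wild-type within each table, and fold changes are on that scale. A call is a fold of at least 1.5 with an unadjusted P of at most 0.05; Benjamini-Hochberg adjustment covers all genes tested. The scripts were tested on simulated data. Shares used exon bases of NCBIM37 and exact permutation tests. Promoters and their coordinates are from RefSeq (GRCm38.p6) and were not joined to the NCBIM37 coordinates. The members and lists were chosen with earlier results of these data known. Named genes were the members, other globins, in each list the 3 largest called changes, and the 10 most alike in profile. The most abundant gene was named for some lists only, as were genes called without knockout replicate 2. Hemgn, Rhag, Tal1, Neurod6, Tbr1, Mrc1, Pf4 and Kdm5d were added after their values were seen. Replicate numbers did not pair samples. Alternatives were the pseudocount, the filter, equal totals, quantile normalization, array weights, a replicate block, length scaling and leaving out each library; the lists without each library were added after seeing the data. The authors' supplementary comparisons were not used.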

Additional observations from a re-analysis of the deposited data

How the results depend on the processing

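No member was called in either comparison under pseudocounts of 0.1 and 10, no filter, a mean of at least 1, equal totals, quantile normalization, array weights or the replicate block. With all libraries kept, 88 of 101 recomputed germline values and 92 of 101 inducible ones kept direction and call; why the others did not was not tested. Genes called lower in the germline rose from 93 to 180 with no filter and 141 with a mean of at least 1. In the inducible comparison, no filter gave 145 lower and 212 higher and a mean of at least 1 gave 105 and 182, against 69 and 113; more genes were tested there. Array weights, which lower the weight of libraries that stand apart, gave 484 lower and 560 higher in the germline, against 93 and 289, and turned the log2 fold changes of Hbb-y (0.29), Hba-a1 and Hba-a2 (0.14), Alas2 (0.41), Slc4a1 (0.40) and Gata1 (0.27) above 0. They did so too in the inducible comparison for Hbb-y (0.026), Hba-a1 and Hba-a2 (0.12), Alas2 (0.12) and Slc4a1 (0.022). Quantile normalization turned germline Alas2 (0.024), Slc4a1 (0.015) and Gata1 (0.41).

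Leaving out 1 library at a time gave 0 to 3 germline members called, the 3 being without knockout replicate 2, and 0 in the inducible comparison. Germline genes called ran from 42 to 642 lower and 115 to 617 higher: 42, 46 and 55 lower without wild-type replicates 1 and 2 and knockout replicate 1, 403 without knockout replicate 3 and 642 without knockout replicate 2. Higher calls were 115, 133, 146, 617 and 587 in that order. Inducible ones ran from 44 (without control replicate 2) to 89 lower and 80 to 250 (without control replicate 1) higher. Germline log2 fold changes ranged from -0.38 to 2.14 for Hbb-bh1, -0.74 to 0.45 for Hbb-y, -0.61 to 1.39 for Hba-x, -0.82 to 0.17 for Hba-a1 and Hba-a2, -0.35 to 0.57 for Alas2, -0.70 to 0.88 for Slc4a1, -0.54 to 0.63 for Gata1 and 0.04 to 1.20 for Klf1. Gata1 fell below the filter without wild-type replicate 3 or knockout replicate 1 and has no value there. Inducible ranges were -0.45 to 0.088 for Hbb-bh1, -0.25 to 0.025 for Hbb-y, -0.24 to 0.049 for Hba-x, -0.14 to 0.10 for Hba-a1 and Hba-a2, -0.14 to 0.14 for Alas2, -0.18 to 0.11 for Slc4a1, -0.60 to 0.16 for Gata1 and -0.24 to 0.22 for Klf1. The knockout minus wild-type difference in share, in percentage points, ranged from -0.0943 to 5.48 (alpha-type), -2.69 to 11.0 (beta-type) and 1.15 to 9.31 (Hbb-bh1) in the germline, and from -1.47 to 0.294, -2.92 to 1.75 and -1.85 to 0.727 in the inducible comparison. Where 1 control is left, it is assumed to vary like the other group.

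The replicate numbers share only a number, with correlations of same-numbered deviations of -0.116, 0.306 and 0.247 in the germline and -0.352 and -0.0513 in the inducible comparison. With the replicate block, 0 members were called in either, with 98 genes lower and 278 higher in the germline and 53 and 110 in the inducible comparison; knockout replicate 3, with no partner there, does not enter that estimate. In the germline not every library correlated best with its own number. Low counts limit Gata1 and Klf1 most.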

Other observations

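Platelets and cells of the vessels and the tissue were read from the same libraries. Platelet and megakaryocyte genes, which share the factors Gata1 and Nfe2 with red cells, summed to 1701 to 2619 normalized counts in germline wild-type libraries and to 4609, 1307 and 2271 in the knockout, and 0 of 13 tested were called, against 2.74% of all germline genes; Thbs1 had the highest level. Of the 17 listed, 14 were lowest in germline knockout replicate 2, and 7 were at 0 there. Without that library the median log2 fold change went from -0.18 to 0.66, and 1 of 14 was called lower and 2 higher. In that fit 4.58% of all genes were called lower and 4.19% higher. In the inducible comparison 0 of 16 were called, against 1.29% of all genes, and the sums were 3751 and 3496 in the controls and 3174, 3377 and 4814 in the knockout.

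Macrophage and microglia genes had medians of log2 fold change of -1.28 in the germline, with 0 of 18 above 0, and 0.31 in the inducible comparison, with 15 of 18 above 0; 0 were called in either, and 0 and 2 passed an unadjusted P of 0.05 (limma). The germline values rest on knockout replicate 2, since without it the median was 0.01 and 9 of 18 were above 0. Of the endothelial genes, Slc2a1, a glucose transporter also on the hypoxia list, was the 1 of 19 called in the germline (log2 fold change 1.88). Of all genes, 2.07% were called higher there. Without wild-type replicate 1, wild-type replicate 2 or knockout replicate 1 the Slc2a1 call was lost (1.81, 1.81 and 1.67). Without knockout replicate 2 the calls were Slc2a1 (1.25) and Flt1, 2 of 19 higher against 4.19% of all genes. Of 17 forebrain genes, 1 was called lower in the germline, against 0.667% of all genes. This was Fabp7, of radial glia, at 7955, 4447 and 4339 against 3022, 3231 and 2960 normalized counts (log2 fold change -0.80). Without wild-type replicate 1 its log2 fold change was -0.52 and no longer past the fold. Without knockout replicate 2 a total of 8 of 17 were called lower, against 4.58% of all genes. The hypoxia list had 13 of 20 called higher in the germline, against 2.07% of all genes, led by Adm (3.99), P4ha2 (3.15) and Bnip3 (2.54), each of them far higher in knockout replicates 1 and 2 than in replicate 3. Its count of higher calls was 4, 5, 10, 2, 11 and 18 without wild-type replicates 1, 2 and 3 and knockout replicates 1, 2 and 3. In that order 0.825%, 0.953%, 1.62%, 1.05%, 4.19% and 4.43% of all genes were called higher. In the inducible comparison 1 of 19 was called, Ndrg1 (0.86), against 1.29% of all genes.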
